A study of Mus musculus with 12 samples.

Results

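A set of 10 genes of amino sugar metabolism was followed in the hippocampus of USF-1 KO mice: Gfpt1, Gfpt2, Gnpnat1, Pgm3, Uap1l1, Nagk, Amdhd2, Gnpda1, Gnpda2 and Ogt. They were 10 of the 55487 genes in the deposited table and were selected by name because Gnpda1 and Uap1l1 were lower in the KO mice, so the genotype difference of those 2 genes is given as a description without a test, whereas the other 8 genes belong to the set through their function. The transcription factor USF-1 recognises the E-box motif CACGTG in DNA, and the study asked how the hippocampal transcriptome differs between mice lacking it and WT mice. Total hippocampal RNA was sequenced from 6 mice of each genotype, giving 12 libraries from 12 animals. All 12 mice were 3 to 4 months old, were on the C57Bl/6JRccHsd background and came from breeding of heterozygous animals, with 4 females and 2 males among the WT and 2 females and 4 males among the KO mice. The knockout was constitutive rather than limited to the brain, and the KO allele is not described further in the sources used here. The 12 libraries were named WT 1 to 6 and KO 1 to 6 (females WT 1 to 4 and KO 1 and 2).

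The hexosamine pathway diverts fructose 6-phosphate from glycolysis into amino sugars. Gfpt1 and Gfpt2 encode the rate-limiting aminotransferases that make glucosamine 6-phosphate, Gnpnat1 encodes the enzyme that acetylates it, Pgm3 the mutase that follows, and Uap1 the pyrophosphorylase that forms UDP-GlcNAc, the activated sugar used for N-glycans, proteoglycans, hyaluronan and sialic acid. Uap1l1 encodes a protein related to that of Uap1. Nagk encodes the kinase that salvages free GlcNAc, such as that released in lysosomes, Amdhd2 the deacetylase that removes the acetyl group again, and Gnpda1 and Gnpda2 the deaminases that return glucosamine 6-phosphate to fructose 6-phosphate. Ogt encodes the transferase that attaches single GlcNAc residues to nuclear and cytosolic proteins, a modification that Oga removes and that is abundant in neurons.

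The E-box sequences near the gene starts are shown first, because CACGTG is the motif USF-1 is known for. RefSeq promoter windows on GRCm38.p6, from 250 bases before to 50 bases after the start, were on hand for 7 of the 10 genes (Gfpt1, Gfpt2, Pgm3, Nagk, Amdhd2, Gnpda2 and Ogt). CACGTG, which reads the same on both strands and was the only motif searched, was present in 1 of these 7, Amdhd2, which holds 3 copies beginning 67, 50 and 23 bases before the start. Of all 32851 windows 7.15% contained the motif and 0.0883%, or 29 windows, contained at least 3 copies. Of 35 further amino sugar genes, listed with earlier results of these data known, 23 had a window. The motif was present in 5 of the 23 (21.7%, against 8.09% of all 27025 genes with a window), a share given as a description. These 5 were Npl, Ext2, Naglu, Sgsh and Nagpa. Their log2 fold changes between KO and WT mice (limma, below) were −0.35, 0.09, −0.23, −0.80 and 0.0059, in this order. Hexa, which like Sgsh passed the test below, had a window without the motif. The stretches printed run from 120 to 11 bases before the RefSeq start, 5′ to 3′ on the strand of the gene, with CACGTG in capitals: Amdhd2 at chr17:24163744-24163853, Sgsh at chr11:119355521-119355630 as a further pathway gene that passed the test below, and Dpp7 at chr2:25356343-25356452 as the gene next to Uap1l1, all on the reverse strand. GENCODE M21 places these gene starts 33, 26 and 27 bases further out, respectively, and a match is a description of the letters only.
Amdhd2: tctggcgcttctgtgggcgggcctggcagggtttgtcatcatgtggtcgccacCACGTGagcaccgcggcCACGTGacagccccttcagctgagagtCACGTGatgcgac
Sgsh: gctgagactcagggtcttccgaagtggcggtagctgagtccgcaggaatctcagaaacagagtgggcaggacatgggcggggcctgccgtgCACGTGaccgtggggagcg
Dpp7: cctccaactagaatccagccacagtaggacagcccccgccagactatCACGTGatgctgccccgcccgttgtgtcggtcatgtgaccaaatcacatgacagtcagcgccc

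The deposited values are normalised counts, that is, reads counted on a gene divided by 1 size factor per library. Between 21679622 and 32091173 reads per mouse were assigned to genes. Usf1, the targeted gene, fell from 1409 ± 284 normalised counts in WT to 141 ± 15.0 in KO mice (SD, n = 6 each), a log2 fold change of −3.29 ± 0.14 (SE; adjusted p = 1.77e-08, limma), with WT 5 at 842 and the other WT mice from 1425 to 1583. The test between genotypes was limma, applied to log2(normalised count + 1) of every gene averaging 10 or more, with Benjamini-Hochberg adjustment, and the fold changes below are on this scale. Of 18221 genes tested, 164 (0.900%) had an adjusted p under 0.05, 135 (0.741%) lower and 29 (0.159%) higher in KO mice. Markers of the choroid plexus, an epithelium next to the hippocampus, summed to 58730 in WT 1 and 166169 in WT 5, against at most 2747 in the other 10 libraries, and the markers of excitatory neurons, summed to between 157128 and 229667 in all 12.

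Gnpda1 and Uap1l1 were the only genes of the 10 whose 6 KO mice all lay below the 6 WT mice, a pattern found in 1.08% of all tested genes; both were picked for being low, so nothing further is read from this count. Gnpda1 (ENSMUSG00000052102, chr18:38327535-38339003, reverse strand) had 406, 411, 377, 421, 386 and 379 normalised counts in WT 1 to 6 and 289, 276, 266, 247, 286 and 298 in KO 1 to 6. The lowest WT mouse, WT 3, stood above the highest KO mouse, KO 6, and mice within a genotype were close to each other, with a coefficient of variation of 4.64% in WT and 6.54% in KO. The mean went from 397 ± 18.4 to 277 ± 18.1 (SD, n = 6 each), 69.8% of the WT level, a log2 fold change of −0.52 ± 0.06 (SE).

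Uap1l1 (ENSMUSG00000026956, chr2:25359889-25365682, reverse strand) had 297, 282, 272, 236, 344 and 309 normalised counts in WT 1 to 6 and 183, 203, 179, 170, 167 and 202 in KO 1 to 6. WT 4 was the lowest of the WT mice and came nearest to the KO mice, while WT 5 was the highest. The mean was 290 ± 36.2 in WT and 184 ± 15.4 in KO mice (SD, n = 6 each), 63.4% of the WT level, with a log2 fold change of −0.65 ± 0.09 (SE). When single mice were omitted, the log2 fold change of Uap1l1 ranged from −0.71 to −0.60 and that of Gnpda1 from −0.54 to −0.49.

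**Figure D1:**
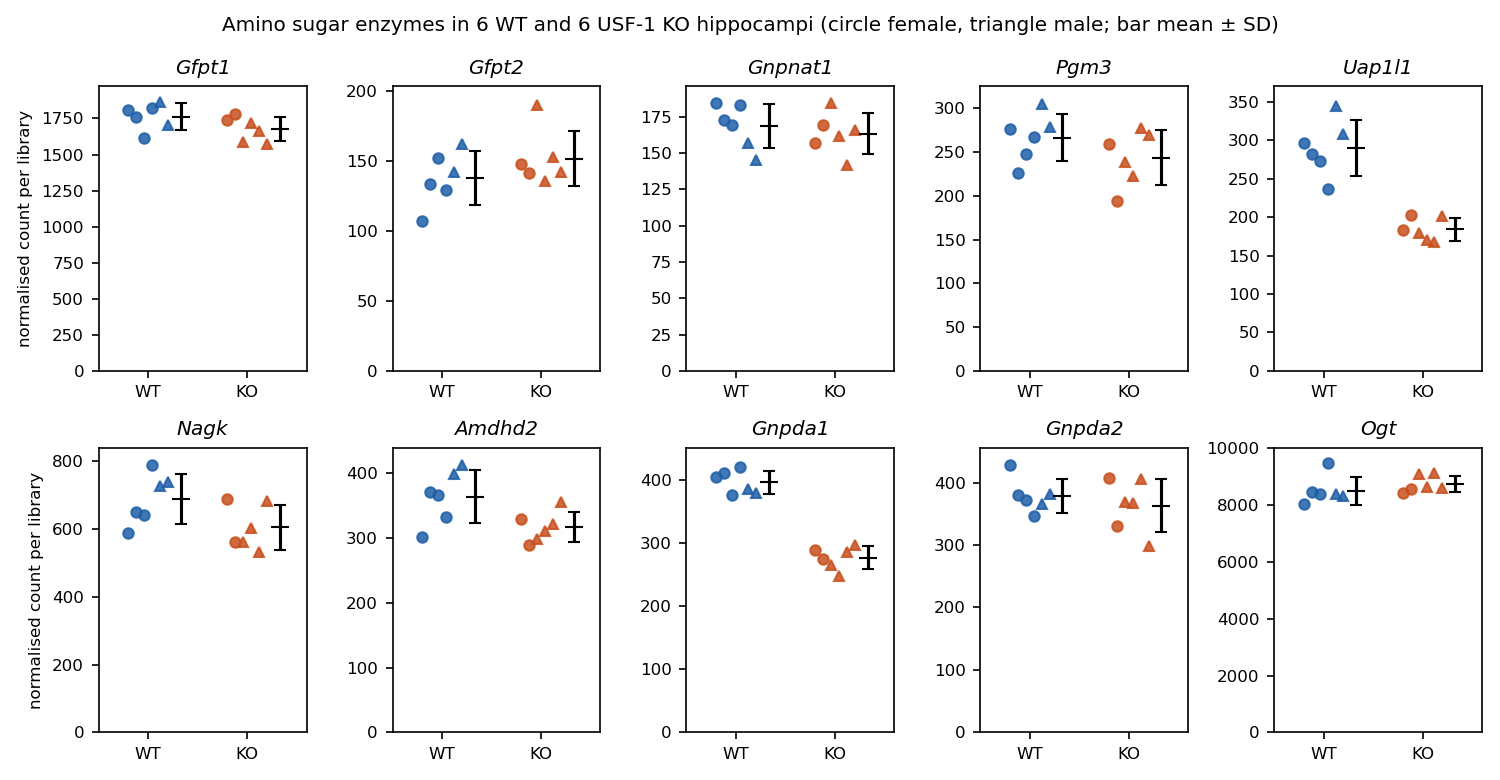
Normalised counts per library of the 10 amino sugar genes, 1 point per mouse (WT blue, USF-1 KO orange, circles female, triangles male), with the mean and SD beside each group. The 6 KO mice lie below the 6 WT mice for Gnpda1 (at most 298 against at least 377) and Uap1l1 (at most 203 against at least 236), and the genotypes overlap for the other 8 genes.

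None of the other 8 genes passed the test between genotypes, with limma, edgeR (0.829% of all tested genes called) or DESeq2 (3.35%), or under any of the 25 alternative settings. At an unadjusted p under 0.05, limma gave 2 of the 8, both lower, where 13.5% of all tested genes had such a p and 7.60% had it in the lower direction. In 0 of the 8 were the genotypes free of overlap, as was the case for 1.50% of all tested genes. The median log2 fold change of the 8 was −0.07 and that of all tested genes −0.00065.

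The enzymes of synthesis upstream of UDP-GlcNAc differed little. Gfpt1, the main aminotransferase by level, ranged from 1616 to 1866 normalised counts in WT mice (median 1785) and from 1573 to 1779 in KO mice (median 1691). The log2 fold change was −0.07 (95% interval −0.17 to 0.02, adjusted p = 0.510, limma). Its paralogue Gfpt2 ranged from 107 to 162 in WT (median 138) and from 136 to 190 in KO mice (median 145). Gfpt2 had the highest fold change of the 10 genes, 0.14 (95% interval −0.09 to 0.37, adjusted p = 0.617, limma), with KO 3 at 190 and the other KO mice at no more than 153. Relative to Gfpt1, Gfpt2 made up 12.4% ± 1.91 (SD, n = 6) of the per-length level of the pair in WT mice and 14.0% ± 1.96 (SD, n = 6) in KO mice. The log2 ratio of Gfpt2 to Gfpt1 was higher by 0.21 in KO than in WT mice and did not pass the test (exact permutation test, two-sided, p = 0.158). The SD of this ratio was 0.26 in WT and 0.22 in KO mice (n = 6 each).

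Gnpnat1, the acetyltransferase, ranged from 145 to 185 normalised counts in WT (median 171) and from 141 to 184 in KO mice (median 164), a log2 fold change of −0.05 (95% interval −0.22 to 0.13, adjusted p = 0.849, limma). Pgm3 ranged from 226 to 305 in WT (median 271) and from 194 to 278 in KO mice (median 249), a log2 fold change of −0.13 (95% interval −0.34 to 0.07, adjusted p = 0.582, limma). The ranges of both genes overlapped over most of their width, and the intervals leave room for falls to 0.858 of the WT level for Gnpnat1 and 0.791 for Pgm3. Gnpnat1 overlaps Styx on the opposite strand and shares 70.8% of its 75-base stretches with other annotated genes, and Pgm3 overlaps Dop1a on the opposite strand, sharing 25.1%. Since the use of strand in the counting is not stated, reads from the shared stretches cannot be assigned to a single gene with certainty.

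Uap1 (chr1:170141938-170174957), whose enzyme completes UDP-GlcNAc and which lies 1.24 Mb from Usf1, ranged from 968 to 1197 normalised counts in WT (median 1108) and from 1061 to 1140 in KO mice (median 1093). Its log2 fold change was −0.0093 (95% interval −0.11 to 0.09, adjusted p = 0.957, limma), with a sign that changed under several settings. Uap1l1 accounted for 20.5% ± 1.84 (SD, n = 6; range 17.4% to 22.9%) of the summed per-length level of Uap1l1 and Uap1 in WT mice and 14.2% ± 1.15 (SD, n = 6; 12.9% to 15.8%) in KO mice. The share moved through Uap1l1, whose level chose it, and no read-length stretch of 75 bases is common to the 2 genes.

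The salvage and breakdown enzymes held the lower values. Nagk, the GlcNAc kinase, ranged from 589 to 787 normalised counts in WT (median 687) and from 532 to 689 in KO mice (median 582), with a mean of 688 ± 73.5 against 605 ± 66.8 (SD, n = 6 each). Its log2 fold change of −0.19 did not pass the test (95% interval −0.36 to −0.01, adjusted p = 0.336, limma). KO 1, KO 4 and KO 6, at 689, 603 and 682, lay inside the WT range, and WT 1, WT 2 and WT 3, at 589, 649 and 642, lay inside the KO range.

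Amdhd2, the GlcNAc 6-phosphate deacetylase with the 3 E-boxes printed above, had 301, 370, 366, 333, 399 and 412 normalised counts in WT 1 to 6 and 329, 289, 299, 311, 321 and 355 in KO 1 to 6. All 6 KO mice were below the WT mean of 364 ± 41.3, and their own mean was 317 ± 23.6 (SD, n = 6 each), but 4 of them were above the lowest WT mouse. The log2 fold change was −0.19 and did not pass the test (95% interval −0.36 to −0.02, adjusted p = 0.294, limma).

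Gnpda2, which encodes the same deaminase activity as Gnpda1, ranged from 346 to 428 normalised counts in WT (median 376) and from 299 to 408 in KO mice (median 368). Its log2 fold change was −0.07 (95% interval −0.24 to 0.10, adjusted p = 0.762, limma), and only KO 2 and KO 6 were below the lowest WT mouse. Per length, Gnpda1 made up 62.5% ± 2.0 (SD, n = 6; range 60.1% to 65.9%) of the summed level of both deaminases in WT mice and 54.9% ± 3.63 (SD, n = 6; 51.7% to 61.3%) in KO mice, where the highest value, that of KO 6, came with the lowest Gnpda2. Because Gnpda1 was chosen for its fall, its lower share in KO mice is a description. Gnpda2 overlaps Guf1 on the opposite strand and shares 12.6% of its 75-base stretches with it. Gnpda1 shares 7.94% with the pseudogene Gm8615, listed at a mean of 37.1 normalised counts, whereas the 2 deaminase genes share none with each other.

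Ogt, the O-GlcNAc transferase, ranged from 8046 to 9482 normalised counts in WT (median 8391) and from 8426 to 9123 in KO mice (median 8624), with WT 4 the highest of all 12 mice. The log2 fold change was 0.04 (95% interval −0.05 to 0.13, adjusted p = 0.729, limma), the narrowest interval of the 10 genes, which bounds the KO level between 0.966 and 1.09 times that of WT. Oga, whose enzyme removes O-GlcNAc, had a log2 fold change of 0.02 (95% interval −0.07 to 0.11, adjusted p = 0.881, limma), with 5867 ± 212 normalised counts in WT and 5951 ± 323 in KO mice (SD, n = 6 each).

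The 10 genes differed widely in level in WT mice. Divided by the exon length in kilobases, Ogt was highest at 1058 ± 61.6 (SD, n = 6) normalised counts per kilobase, at the 94.2 percentile of all tested genes. Gfpt1 (175 ± 8.98) and Nagk (147 ± 15.7) followed with overlapping ranges. Amdhd2 (99.4 ± 11.3) and Gnpda1 (92.0 ± 4.27) overlapped next, and then Uap1l1 (71.2 ± 8.90), Pgm3 (59.5 ± 6.06) and Gnpda2 (55.2 ± 3.95), each overlapping its neighbour in this order. Gnpnat1 (35.6 ± 3.20) and Gfpt2 (24.7 ± 3.44, percentile 23.7) were lowest and stood apart from the rest and from each other. In KO mice the per-length level of Gnpda1 was 64.2 ± 4.20 and that of Uap1l1 45.2 ± 3.77 (SD, n = 6 each).

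Beyond the 10 genes, 35 amino sugar genes in 6 groups were listed, and all but Has2, whose mean was under 10 normalised counts, were tested. This list was drawn up with earlier results of these data known, so its counts are descriptions. Of the 34, 2 fell and 0 rose, where 0.741% of all tested genes fell and 0.159% rose, and both, Hexa and Sgsh, encode lysosomal enzymes, which act on gangliosides and on heparan sulfate, respectively. At an unadjusted p under 0.05 limma gave 6 of the 34, all lower, against 7.60% lower in all tested genes. The median log2 fold change was −0.0087 and 58.8% of the values were negative, against 50.2% of all tested genes.

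Hexa, the alpha subunit of beta-hexosaminidase, ranged from 1173 to 1391 normalised counts in WT (median 1242) and from 904 to 1050 in KO mice (median 944). The genotypes did not overlap, and the log2 fold change was −0.41 ± 0.05 (SE; adjusted p = 0.00277, limma). Sgsh, the heparan N-sulfatase whose promoter window holds the E-box printed above, ranged from 196 to 281 in WT (median 237) and from 115 to 170 in KO mice (median 132), again without overlap, a log2 fold change of −0.80 ± 0.11 (SE; adjusted p = 0.00305, limma). Of the 8 genes in the group listed for lysosomal release, Nagpa among them, 6 had negative values, with a median log2 fold change of −0.17. DESeq2 on the recovered reads called 4 of the 34 pathway genes (Hexa, Sgsh, Aga and Renbp), and edgeR called 2, against 3.35% and 0.829% of all tested genes.

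Outside the group of lysosomal release, 0 of the remaining 26 tested genes passed with limma or edgeR. At an unadjusted p under 0.05 limma gave 2, and DESeq2 called 1. The shares of all tested genes were 0.900% (limma), 0.829% (edgeR), 13.5% (unadjusted) and 3.35% (DESeq2). Renbp, which interconverts GlcNAc and N-acetylmannosamine, had 50.6 ± 10.7 normalised counts in WT and 31.2 ± 6.15 in KO mice (SD, n = 6 each), a log2 fold change of −0.68 that missed the threshold (adjusted p = 0.0804, limma) and that DESeq2 called (adjusted p = 0.0229). Npl, the lyase that breaks down sialic acid, had 55.8 ± 9.83 and 43.4 ± 6.86 (SD, n = 6 each), a log2 fold change of −0.35 (adjusted p = 0.308, limma). Its value was −0.64 in females and 0.01 in males, with an interaction of 0.65 ± 0.27 (SE; unadjusted p = 0.0322, adjusted p = 1.0, limma). Gne, the enzyme that starts sialic acid synthesis from UDP-GlcNAc, had a log2 fold change of 0.04 (95% interval −0.06 to 0.13, adjusted p = 0.767, limma).

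**Figure D2:**
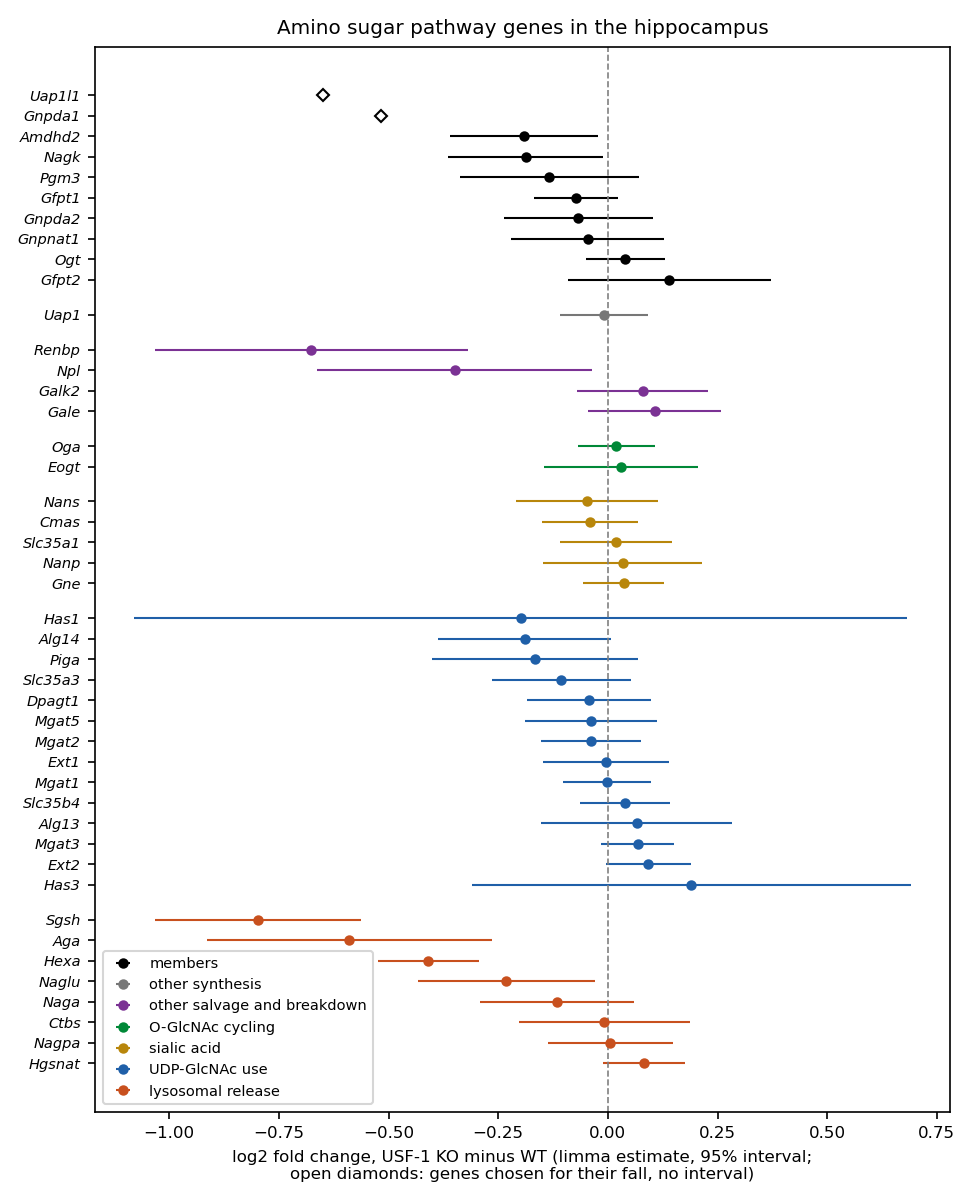
Log2 fold changes between USF-1 KO and WT mice (horizontal axis; limma, 6 mice each) for the 10 amino sugar genes and the 34 further pathway genes tested, coloured by group, with 95% intervals. Uap1l1 (−0.65) and Gnpda1 (−0.52), drawn as open diamonds without interval because they were chosen for their fall, stand below the other 8 genes (−0.19 to 0.14), and among further genes Sgsh and Hexa passed the test.

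Sex was spread unevenly over the genotypes and was examined as a comparison that played no part in choosing the genes. In a limma fit with genotype and sex, 0 of the 10 genes differed between males and females, none at an unadjusted p under 0.05, and edgeR and DESeq2 called 0 as well. Of all tested genes 0.0549% were called and 6.45% had an unadjusted p under 0.05. Their differences between males and females ranged from −0.12 for Gnpnat1 to 0.18 for Pgm3 (log2). Uap1l1 was lower in KO mice in either sex, with a log2 fold change of −0.49 in females (4 WT, 2 KO) and −0.86 in males (2 WT, 4 KO). One of these 2 WT males was WT 5, which had the highest Uap1l1 of all mice (344) and the highest choroid plexus markers. The interaction of genotype and sex for Uap1l1 was −0.37 ± 0.16 (SE), with an unadjusted p of 0.0406 and an adjusted p of 1.0 (limma), and 0 of all tested genes passed this test (628, or 3.45%, at an unadjusted p under 0.05; edgeR 0, DESeq2 5). Gnpda1 had −0.51 in females and −0.48 in males, an interaction of 0.03 ± 0.12 (SE; adjusted p = 1.0, limma). Amdhd2 had −0.15 in females and −0.34 in males and Nagk −0.09 and −0.31, and neither interaction passed the test.

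Marker levels of cell types were set beside these values, since in bulk tissue fewer cells of a type and less RNA per cell cannot be told apart. The 8 oligodendrocyte markers summed to 143553 to 185805 normalised counts in 5 WT mice but to 85831 in WT 4, and to 73991 to 113248 in KO mice. All 8 had lower means in KO mice (median log2 fold change −0.66), all with an unadjusted p under 0.05, and limma called 0, edgeR 0 and DESeq2 8 of them. Of all tested genes 13.5% had such an unadjusted p (limma), and 0.900% (limma), 0.829% (edgeR) and 3.35% (DESeq2) were called. The 7 microglia markers summed to 6140 to 8645 in WT and 5826 to 6533 in KO mice, with 7 of 7 negative values (limma, edgeR and DESeq2 called 0, and 5 had an unadjusted p under 0.05), while those of astrocytes, endothelium and both kinds of neuron overlapped over most of their range. Negative values were found for 5 of 8 astrocyte, 3 of 8 endothelial, 1 of 8 excitatory neuron (median log2 fold change 0.13) and 6 of 8 inhibitory neuron markers. All 8 choroid plexus markers were negative (median −1.15), with 0 called by limma or edgeR and 4 by DESeq2. Ttr, the defining choroid plexus marker, stood at 52017 in WT 1 and 149554 in WT 5 and no higher than 1530 elsewhere.

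Gnpda1 was highest of all mice in WT 4, whose oligodendrocyte markers lay within the KO range. With the log2 sum of these markers as a covariate, the log2 fold change of Gnpda1 was −0.51 and the slope on the markers 0.02 ± 0.09 (SE). For Uap1l1, which was lowest among WT mice in WT 4, the log2 fold change was −0.50 and the slope 0.24 ± 0.13 (SE). This covariate was chosen after seeing the data and largely followed genotype. Apart from WT 4, marker sums were at least 143553 in WT and at most 113248 in KO mice, so marker level and genotype are hard to tell apart. Without WT 1 and WT 5 the values were −0.52 for Gnpda1 and −0.57 for Uap1l1. In the fit with the covariate 19 genes were called (0.104%), Hexa and Sgsh no longer among them (adjusted p of 0.0707 and 0.133, limma, with log2 fold changes of −0.43 and −0.71). The part of oligodendrocyte or microglial RNA in these differences was not tested further.

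**Figure D3:**
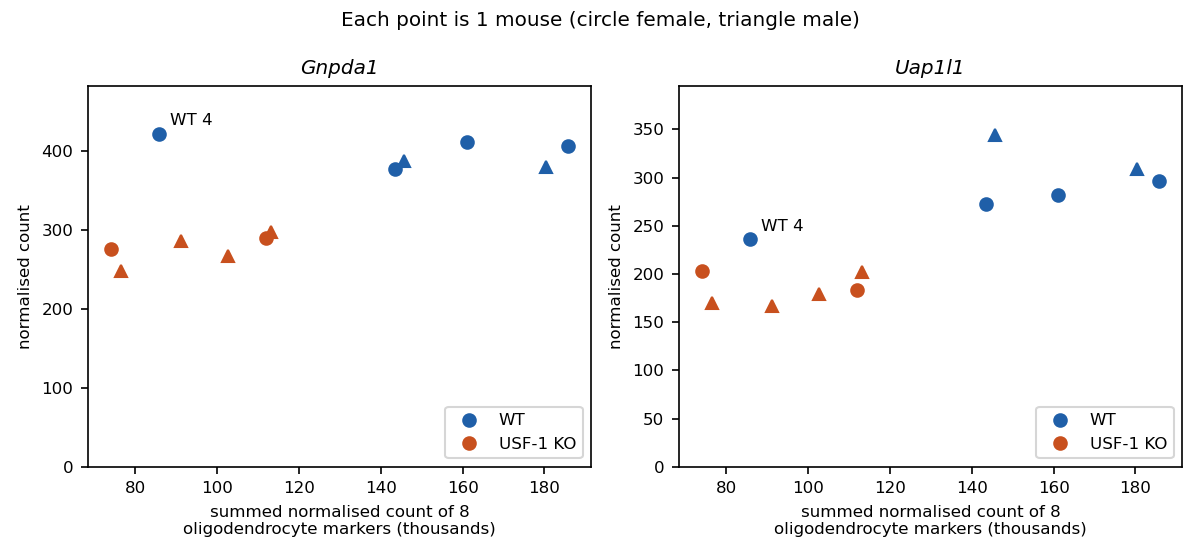
Normalised counts of Gnpda1 and Uap1l1 (vertical axes) against the summed normalised count of 8 oligodendrocyte markers (horizontal axis), 1 point per mouse (WT blue, KO orange, circles female, triangles male). WT 4, with marker sums within the KO range, has the highest Gnpda1 (421) and the lowest WT value of Uap1l1 (236).

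Genes close to Gnpda1 and Uap1l1 on the chromosome were compared as well. Within 100 kb of Gnpda1, 8 of 11 genes were tested and 0 passed with limma, edgeR or DESeq2, none at an unadjusted p under 0.05. The nearest tested neighbours were Rnf14, 9686 bases away with a log2 fold change of −0.0032, and Gm4949, 20438 bases away with −0.05. Within 100 kb of Uap1l1, 11 of 18 genes were tested. The test was passed by 1 with limma and with edgeR (0.900% and 0.829% of all tested genes) and by 2 with DESeq2 (3.35%), Dpp7 and Abca2, and 4 had an unadjusted p under 0.05 (13.5%), Dpp7, Entpd2, Grin1 and Abca2. Dpp7, the gene called with all 3 tools, encodes a lysosomal dipeptidyl peptidase and lies 3530 bases away on the same strand, past the 3′ end of Uap1l1. Dpp7 went from 596 ± 41.0 to 53.4 ± 18.6 normalised counts (SD, n = 6 each), a log2 fold change of −3.54 ± 0.21 (SE; adjusted p = 8.25e-07, limma). Sapcd2, the nearest tested gene on the other side at 6639 bases, had a log2 fold change of 0.04 (adjusted p = 0.940, limma). Uap1l1 thus lay between a gene with a far larger fall and one whose estimate was near 0.

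**Figure D4:**
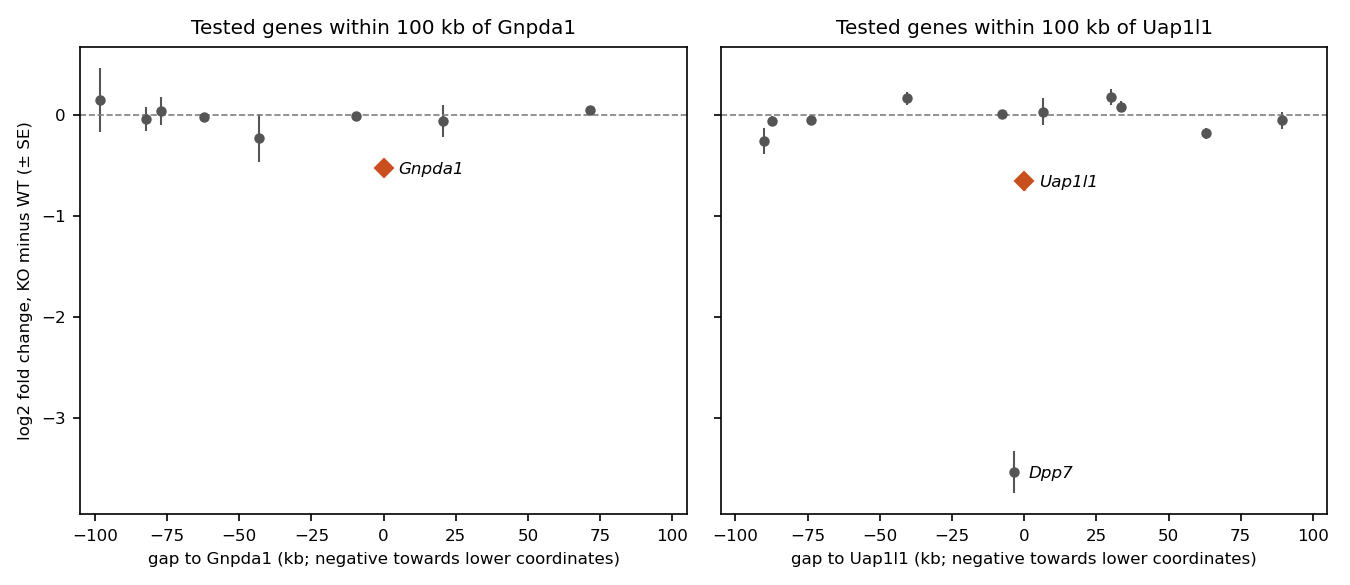
Log2 fold change between KO and WT mice (vertical axis, with standard errors) of the genes tested within 100 kb of Gnpda1 (left) and Uap1l1 (right), against the gap between genes in kilobases (horizontal axis). Gnpda1 (−0.52) has no neighbour past the test, and Uap1l1 (−0.65) has Dpp7 (−3.54) at 3530 bases.

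The genes whose profile over the 12 mice was most like those of Gnpda1 and Uap1l1 were found by the root mean square difference of their log2 values after subtraction of the mean of the gene, among 12676 genes with a mean over 100 normalised counts. For Gnpda1 these were Snx8 (0.0807), Gpx1 (0.0829) and Hexa (0.0842), against a median of 0.295. For Uap1l1 they were Marchf8 (0.124), Rad9a (0.157) and Cyp2j6 (0.161), against a median of 0.375. Between Gnpda1 and Uap1l1 the difference was 0.176, which ranked Gnpda1 at place 13 for Uap1l1 and Uap1l1 at place 158 for Gnpda1. These profiles share the genotype difference for which both genes were chosen, so their likeness is a description.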

How the data were processed

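Hippocampal RNA of 12 mice, 6 WT and 6 USF-1 KO, was sequenced by the authors from NEBNext Ultra II libraries. The deposited signal is a normalised count: the authors aligned reads with STAR and the alignment app of Illumina Basespace, counted them per gene and scaled each library by its DESeq2 size factor. The submitters' processing notes list mm10, STAR 2.5.0a and edgeR 3.22.2, the last without a stated role; the counter, annotation and strandedness are not given in the sources used here. Gene coordinates equal those of GENCODE M21 on GRCm38 for 54821 of 55227 identifiers found. In each library 100% of the values were whole multiples of a single step (tolerance 0.01), which gave back the reads. No library repeated another (the closest pair had a chi-square of 4.54 per degree of freedom). Depth was 21679622 to 32091173 reads per library, and the 10 genes had 112 to 10355 reads each per library.

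Tests between genotypes were two-sided and used limma 3.58.1 (R 4.3.3) with its trend option, genotype being the single term, on log2(normalised count + 1) of the 18221 genes averaging 10 or more, and Benjamini-Hochberg adjusted p under 0.05 was called. Sex and its interaction with genotype were added terms. The methods speak of littermates, but the labels tie no mouse to a litter, and p-values measure the spread between these mice. Alternatives were pseudocounts of 0.5 and 5, a mean of at least 50 or no limit, rescaled totals, quantile normalisation, sex as a covariate, no trend, a threshold of 0.1, recovered reads in edgeR 4.0.16 (quasi-likelihood, TMM) or in DESeq2 1.42.0, each sex alone and leaving out each mouse. Leaving out WT 1 and WT 5, and a covariate of oligodendrocyte markers, were chosen after seeing the data. Members and lists of genes were chosen with earlier results of these data known. The genes named were the 10 members, Usf1, the nearest pathway steps (Uap1, Oga, Gne, Renbp and Npl), pathway genes past the threshold, the nearest tested neighbours and those past the threshold within 100 kb of Gnpda1 and Uap1l1, the 3 genes most like each, and markers that stood apart; Has2, Aga, Guf1, Styx, Dop1a, Gm8615, Abca2, Entpd2, Grin1 and genes with an E-box or a value far from the rest of their group were named beside them after their values were seen. Results of 2 listed genes are not reported here. Levels between genes were divided by the exon length of GENCODE M21. Steps were tested on simulated counts. Promoter sequences are those of RefSeq on GRCm38.p6. Python 3.11.15 with matplotlib 3.10.9 made the figures.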

Additional observations from a re-analysis of the deposited data

Results flagged for a closer look

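In 7 of 90 groups of 6 mice examined, a single mouse stood apart from the other 5 by Dixon's criterion at 95%, where chance gives about 1 in 20. Among the 10 amino sugar genes, Gfpt2 stood at 190 normalised counts in KO 3, with the remaining KO mice at 136 to 153. Ogt stood at 9482 in WT 4, with the remaining WT mice at 8046 to 8464. In WT 4, Alg13, a subunit of the transferase that adds the second GlcNAc of the N-glycan precursor, was also high, at 211 against 138 to 164. WT 5, a library with choroid plexus markers, had 311 normalised counts of Naglu, a lysosomal enzyme of heparan sulfate breakdown, against 204 to 238, and 842 of Usf1 against 1425 to 1583. Galk2, a GalNAc kinase, was low in KO 3, at 409 against 498 to 535. Nanp, a phosphatase of sialic acid synthesis, was high in KO 1, at 322 against 247 to 272.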

How the results depend on the processing

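Over 27 results and 691 comparisons with alternative settings, 641 kept their direction and their side of the threshold or stayed within the spread. The 8 members not chosen on their values had 0 calls under 25 of 25 settings. The number of genes called between genotypes, 164, became 343 at a threshold of 0.1, 98 with sex as a covariate, 109 without the trend, 611 with DESeq2, 59 without WT 1 and WT 5 and 19 with the oligodendrocyte markers as a covariate, and it ranged from 64 (without WT 1) to 515 (without WT 4) with 1 mouse left out. The number of further pathway genes called, 2, became 4 at a threshold of 0.1 and 4 with DESeq2. It became 3 with sex as a covariate, with Aga added (adjusted p = 0.0310, limma), and 0 with the oligodendrocyte covariate. With 1 mouse left out it ranged from 2 to 4, the highest without WT 4. Genes called between the sexes, 10, became 44 with DESeq2 and ranged from 10 to 17, and those called for the interaction, 0, became 5 with DESeq2 and ranged from 0 to 1. The log2 fold change of Usf1 was −2.96 in males alone, where the 2 WT mice included WT 5, at 842 normalised counts of Usf1. Estimates near 0 changed sign: with the oligodendrocyte covariate Gnpda2 was 0.023, Ogt −0.047, Uap1 0.031 and Oga −0.061, with quantile normalisation Gnpnat1 was 0.016 and Oga −0.0096, without WT 1 and WT 5 Uap1 was 0.0071 and Oga −0.0018, and with 1 mouse left out Uap1 ranged from −0.047 to 0.015 and Oga from −0.0019 to 0.037. The cause of these changes was not tested. No paired analysis was possible because the labels give each mouse a number of its own and the genotypes share none.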
